A study of Homo sapiens with 6 samples.

Results

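The nuclear pore and nuclear transport genes were followed after knockdown of the arginine methyltransferase gene PRMT1 in the bone-metastatic M3 form of MDA-MB-231, a human breast cancer line of the triple-negative type. The members were chosen by symbol alone: nucleoporins with a numbered NUP symbol, importins (KPNA, KPNB, IPO, TNPO), exportins (XPO), Ran-binding proteins (RANBP), and RAN, RANGAP1, RCC1, TPR, CSE1L, NXF1 and NXT1. This gave 62 of the 20532 genes in the count table, and 60 of them were among the 13710 genes with enough counts to be tested. Stranded mRNA sequencing compared 3 libraries from cells in which siRNA had knocked down PRMT1 (siPRMT1) with 3 libraries from control cells. The controls are labelled only untreated or control, and the sources used here do not give whether they were transfected. Each group is labelled as biological replicates, but separate transfections are not mentioned, so the spread that p-values rest on may be technical and is that of these 6 samples only.

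The nuclear pore is a ring-shaped assembly of nucleoporins that lets small molecules diffuse and passes larger cargo only when it is bound to a transport receptor. Importins release their cargo inside the nucleus when they bind Ran-GTP, exportins take up theirs together with Ran-GTP, and the GTP on Ran is loaded on chromatin by RCC1 and hydrolysed in the cytoplasm with RANGAP1. Bulk messenger RNA leaves by another receptor, the NXF1 and NXT1 pair. PRMT1 adds methyl groups to arginines of many RNA-binding proteins, and the comparison asks which of the pore and transport transcripts differ when PRMT1 is knocked down.

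Total counts ranged from 16968563 to 20545995 in the siPRMT1 libraries and from 17921097 to 19645127 in the control libraries. PRMT1 itself had 193, 218 and 181 counts in the siPRMT1 libraries and 3160, 2991 and 3072 in the control libraries, a log2 fold change of -3.62. The mitochondrial genome gave 8.64% to 8.74% of counts in the siPRMT1 libraries and 5.001% to 5.09% in the control libraries. The line's markers VIM, CD44, EGFR and AXL were abundant, with a summed level of 3751 to 3794 CPM (TMM-scaled counts relative to library size) in the siPRMT1 libraries and 3658 to 3689 CPM in the control libraries. The near-equal sums hide opposite changes: VIM and AXL were higher in the siPRMT1 libraries (log2 fold change 0.38 and 0.36), and CD44 and EGFR lower (-0.72 and -1.08). The hormone receptor genes ESR1 and PGR together had at most 1 count in a siPRMT1 library and at most 4 in a control library. Of the leukocyte markers PTPRC, CD3E, CD14 and CD68, summed to 376 to 382 CPM in the siPRMT1 libraries against 203 to 207 CPM in the control libraries, CD68 made up nearly all, and PTPRC had at most 1 count in a siPRMT1 library and at most 4 in a control library. The endothelial markers PECAM1, CDH5 and VWF summed to 19.6 to 20.6 CPM in the siPRMT1 libraries against 20.9 to 21.5 CPM in the control libraries, and PECAM1 made up nearly all of it. The fibroblast markers COL1A1, PDGFRB and DCN summed to 21.7 to 25.6 CPM in the siPRMT1 libraries against 7.996 to 9.93 CPM in the control libraries. COL1A1 made up most of this sum and was higher, with a mean of 22.9 CPM in the siPRMT1 libraries against 7.05 CPM in the control libraries. PDGFRB was lower, with 0.871 against 1.71 CPM, and DCN had almost no counts. The part of the mitochondrial share and of these marker levels in the results below was not tested.

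Most pore and transport genes were lower after PRMT1 knockdown. With quasi-likelihood testing in edgeR and p-values adjusted after Benjamini and Hochberg over the whole table, 44 of the 60 tested members fell and 14 rose at an adjusted p under 0.05, and the largest adjusted p among these 58 was 0.00418. Of all tested genes 89.3% passed in either direction, 45% lower and 44.3% higher, so a pass by itself says little about a member. The members' median log2 fold change, siPRMT1 minus control, was -0.44, against -0.0082 over all tested genes. At least 2-fold changes were found for 13 members that fell and 2 that rose, where 21% and 15.3% of tested genes did so. In 58 members, the 3 siPRMT1 libraries and the 3 control libraries did not overlap, as in 89.1% of tested genes. All members together took 0.462% ± 0.0026 of the counts in the siPRMT1 libraries and 0.727% ± 0.0047 in the control libraries (mean ± SD, n = 3 each). In bulk RNA, fewer cells that make a transcript and less of it per cell cannot be told apart. Every level is a share of its library, so the scaling matters: when totals alone were used for it, the median over all tested genes was -0.33 and that of the members -0.76, with 8 members higher and 49 lower, where 33.5% and 55.4% of tested genes were.

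**Figure D1:**
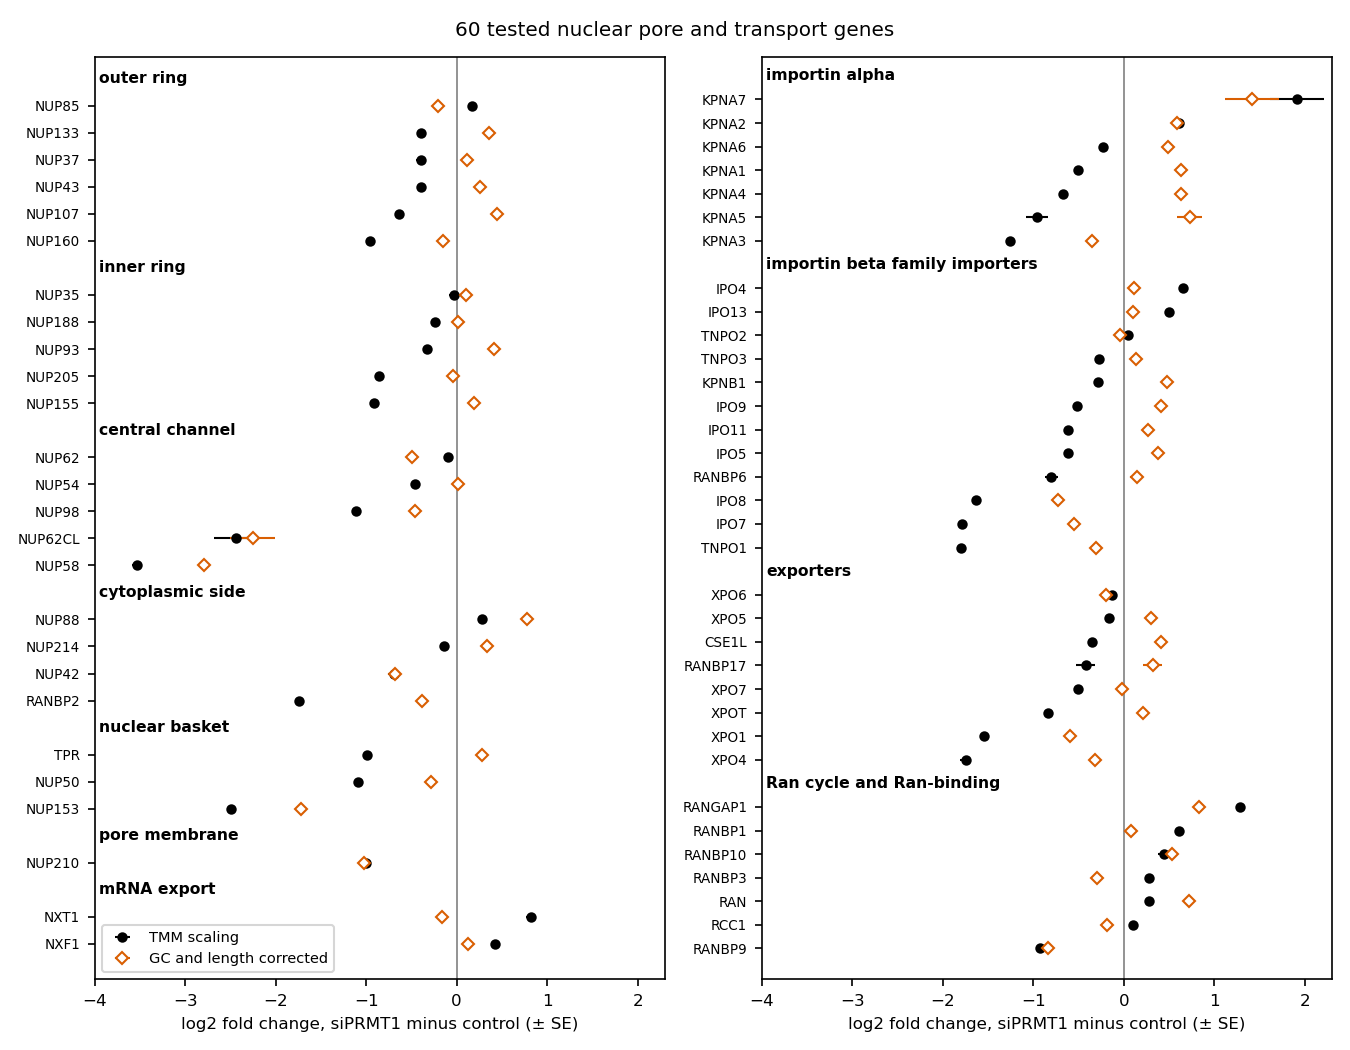
Log2 fold change (siPRMT1 minus control, horizontal axis, ± SE) of each of the 60 tested members, grouped by role, with TMM scaling (filled circles) and after a correction for transcript GC content and length (open diamonds). With TMM scaling 44 members fell and 14 rose, where 45% and 44.3% of tested genes did. After the correction 22 members were lower and 31 higher, where 40.5% and 40% of tested genes were. NUP58, NUP62CL, NUP153 and NUP210 were still at least 2-fold lower after it.

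The lean of the members followed the base composition and length of their transcripts. The canonical transcripts of the tested members had a median GC content of 43.6% and a median length of 4929 bases, against 48.6% and 3253 bases over all tested genes. Of the 18 members under 40% GC, 17 fell and none rose, at a median log2 fold change of -0.88 where all genes of that class had -1.02. Of the 7 members at 55% GC or more, 4 rose and 2 fell, with a median of 0.28 where all genes of that class had 0.80. All 10 members with transcripts of 7500 bases or more fell, with a median of -0.94 against -1.07 for all genes of that class, while 7 of 12 members under 2500 bases rose, with a median of 0.22 against 0.66. Across the 60 members, Spearman's rho of the log2 fold change was 0.637 with GC content and -0.524 with length. Over all tested genes it was 0.648 and -0.557. Genes are not independent replicates, and these values describe the table.

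A second fit removed the dependence on GC content and length in each library by smooth curves fitted over all genes. After this correction 31 members were higher and 22 lower, where 80.5% of tested genes passed, 40% higher and 40.5% lower, and the member median was 0.11. Of the 58 members past the threshold without the correction, 28 had the opposite sign with it, 25 of these past the threshold on the other side. A further 28 kept their sign and passed in both fits, 18 of them lower and 10 higher. At least 2-fold changes were found in the corrected fit for NUP58, NUP62CL, NUP153 and NUP210, which were lower, and KPNA7, which was higher, where 9.58% of tested genes were that much lower and 4.74% that much higher. Because so many signs differed between the fits, the corrected value stands beside each member below. Whether the relation with GC content and length arose in the cells or in library preparation was not tested.

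**Figure D2:**
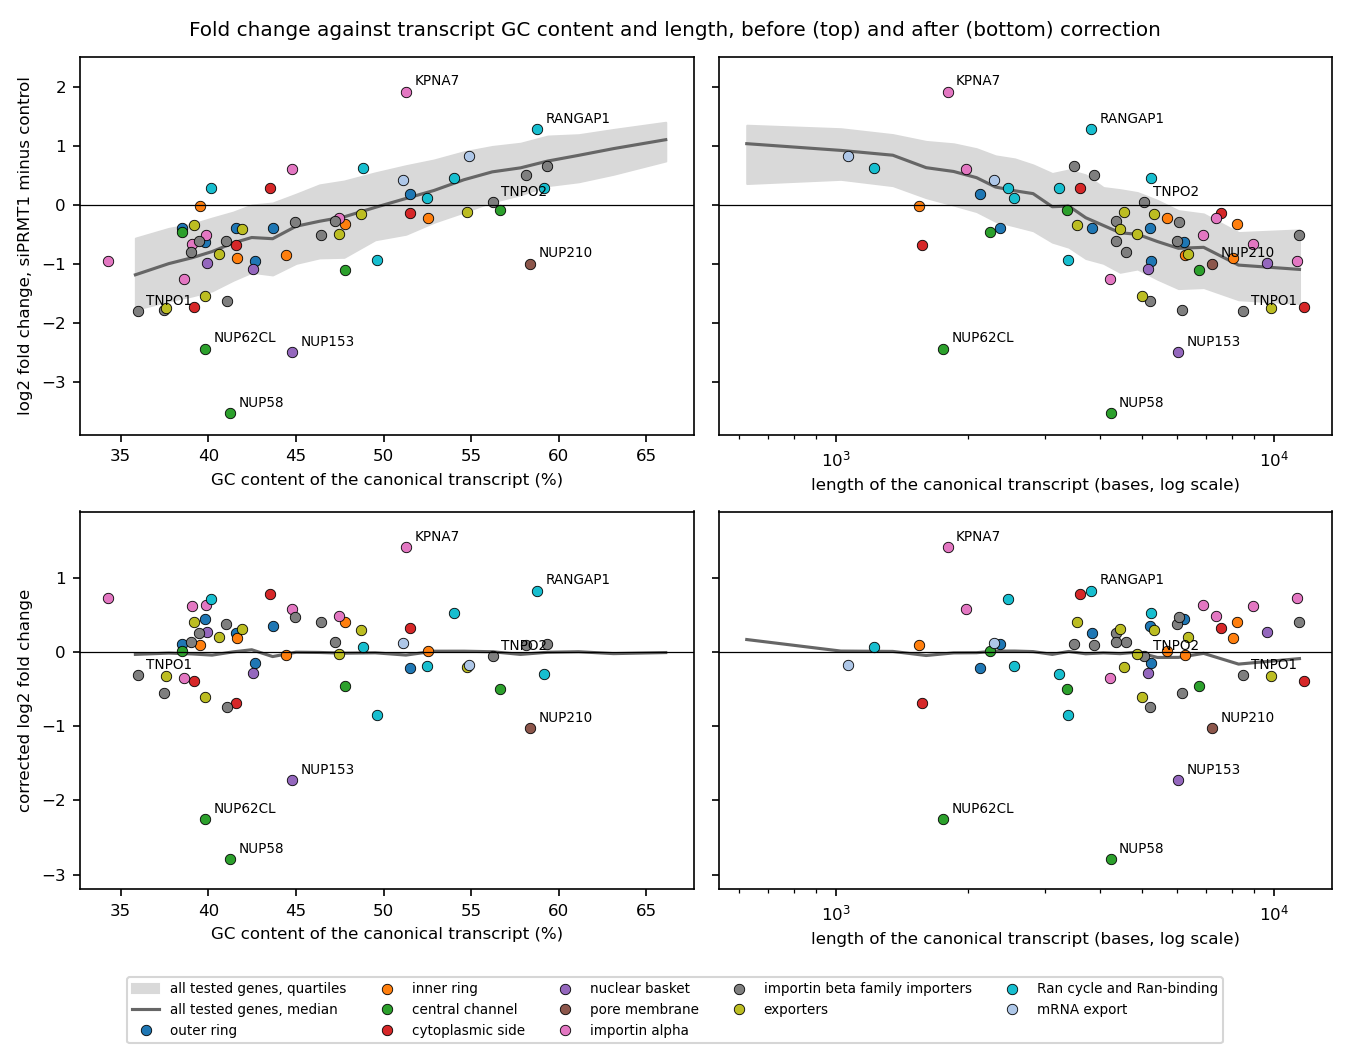
Log2 fold change (vertical axes, siPRMT1 minus control) of the 60 tested members against the GC content (left, %) and length (right, bases, log scale) of the canonical transcript, before (top) and after (bottom) the correction; the line and grey band are the median and quartiles of all tested genes. Before the correction the members track the line of all genes, while NUP58, NUP153, NUP62CL and NUP210 lie below it and KPNA7 and RANGAP1 above it in both rows.

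In the central channel of the pore, NUP58 fell more than any other tested member. NUP58, NUP54 and NUP62 form the trimer whose disordered repeats fill the channel and bind passing transport receptors, NUP98 is another repeat protein of the channel, and NUP62CL is a shorter relative of NUP62. NUP58 (ENSG00000139496; hg38, chromosome 13, 25301524 to 25365390, plus strand) had 7.13, 7.505 and 6.90 CPM in the siPRMT1 libraries, against 82.3, 83.5 and 84.4 CPM in the control libraries. The groups were far apart and the libraries of each lay close together. NUP58 was 11.6-fold lower, with a log2 fold change of -3.53 (SE 0.0574; edgeR, adjusted p = 1.77e-242), and -2.79 after the correction. NUP62CL, near the detection limit, had 10, 12 and 5 counts in the siPRMT1 libraries against 76, 59 and 53 in the control libraries. Its log2 fold change was -2.44 (SE 0.246; edgeR, adjusted p = 4.21e-21), and -2.25 after the correction. NUP98 fell by 1.115 on the log2 scale (-0.46 corrected).

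The partners of NUP58 moved far less. NUP54 had 38.7, 35.3 and 41.2 CPM in the siPRMT1 libraries against 54.6, 53.2 and 49.8 CPM in the control libraries, a log2 fold change of -0.46 that was 0.013 after the correction, and 11.7% of its annotated exon bases lie opposite ART3 exons, so its counts and its share below are uncertain if strand was ignored. NUP62 had 77.6, 75.7 and 78.6 CPM in the siPRMT1 libraries against 84.2, 82.7 and 80.7 CPM in the control libraries, a log2 fold change of -0.10 that did not pass in DESeq2 and was -0.50 after the correction. Of its annotated exon bases 5.58% lie in IL4I1 exons and 6.38% in those of another gene, both on the same strand. A further overlap, of 9.38%, is with ATF5 on the opposite strand, so the counts of NUP62 are uncertain too. The 3 transcripts thus stood in different proportions in the groups. Per kilobase of transcript, NUP58 made up 4.07% ± 0.338 of the trio's counts in the siPRMT1 libraries and 29.1% ± 0.951 in the control libraries (mean ± SD, n = 3 each). A share within a library does not depend on the scaling between libraries, but it keeps any effect of GC content and length.

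**Figure D3:**
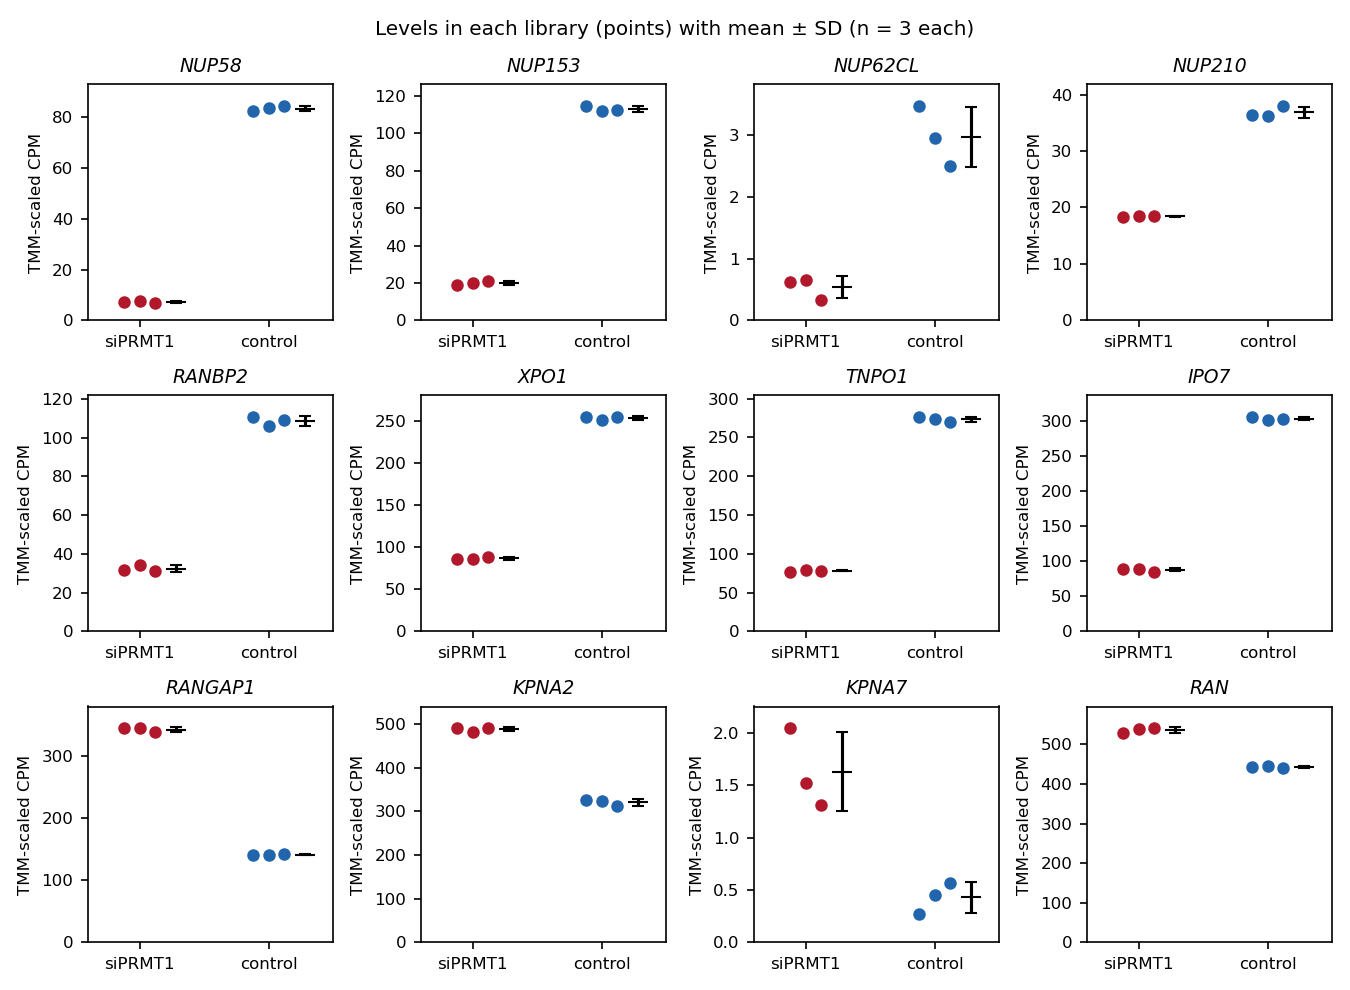
TMM-scaled CPM (vertical axes, from 0) of 12 members in each siPRMT1 library (left) and each control library (right), with the mean ± SD beside the points (n = 3 each). The groups do not overlap in any panel, as in 89.1% of all tested genes, and NUP35 and TNPO2, whose groups overlap, are not shown. NUP58 had 6.90 to 7.505 CPM in the siPRMT1 libraries and 82.3 to 84.4 CPM in the control libraries. RAN, the closest pair of groups shown, is lower in the siPRMT1 libraries with scaling by library size alone (-0.042 on the log2 scale).

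All 3 genes of the nuclear basket, the set of filaments on the nucleoplasmic face, were lower without the correction, as were 45% of tested genes. NUP153 (ENSG00000124789; hg38, chromosome 6, 17615035 to 17706834, minus strand), which anchors the basket and binds importins and RNA, had 19.0, 20.2 and 20.96 CPM in the siPRMT1 libraries, against 115, 112 and 113 CPM in the control libraries. It was 5.65-fold lower, with a log2 fold change of -2.50 (SE 0.0422; edgeR, adjusted p = 2.33e-234), and -1.72 after the correction. NUP50, a partner of NUP153 that helps to recycle importin alpha, had 39.0, 36.6 and 35.9 CPM in the siPRMT1 libraries against 77.4, 82.2 and 77.9 CPM in the control libraries, a log2 fold change of -1.09 (-0.29 corrected). TPR, the coiled-coil protein of the basket filaments, fell by 0.99 on the log2 scale but was at 0.28 after the correction. Within the basket the transcripts were again unequal. NUP153 made up 19.7% ± 1.02 of the 3 genes' counts per kilobase in the siPRMT1 libraries and 40.2% ± 0.460 in the control libraries.

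The scaffold of the pore changed less. In the outer ring, the Y-shaped complex that coats both faces, 5 of 6 genes fell and 1 rose, at a median log2 fold change of -0.40. After the correction 4 were higher and 2 lower, with a median of 0.19. Of all tested genes 45% fell and 44.3% rose, and 40.5% were lower and 40% higher after the correction. NUP160 had 29.8, 32.1 and 31.1 CPM in the siPRMT1 libraries against 59.8, 61.9 and 58.9 CPM in the control libraries (log2 fold change -0.95, -0.15 corrected). NUP107 had 46.5, 41.5 and 42.8 CPM in the siPRMT1 libraries against 67.8, 66.5 and 69.2 CPM in the control libraries, and its log2 fold change of -0.64 was 0.45 after the correction. NUP85 was the member that rose, with 67.9, 68.4 and 70.4 CPM in the siPRMT1 libraries against 61.7, 59.0 and 62.4 CPM in the control libraries, but its log2 fold change of 0.17 was -0.14 when scaled by library size alone and -0.21 once corrected. NUP43, NUP37 and NUP133 had log2 fold changes between -0.40 and -0.39, and between 0.12 and 0.35 after the correction. NUP160 is thus the outer ring gene that fell in each of these fits.

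In the inner ring, which joins the scaffold to the membrane, 4 of 5 genes fell, with a median of -0.33, where 45% of tested genes fell. After the correction 2 were higher and none lower, where 40% and 40.5% of tested genes were. NUP155 had 36.4, 38.2 and 39.6 CPM in the siPRMT1 libraries against 72.1, 72.4 and 70.2 CPM in the control libraries (log2 fold change -0.91, 0.19 corrected). NUP205 had 61.4, 65.1 and 59.98 CPM in the siPRMT1 libraries against 115, 109 and 113 CPM in the control libraries (log2 fold change -0.86, -0.040 corrected). Both were far below the controls with TMM scaling, and neither was lower past the threshold after the correction. NUP93 and NUP188 had log2 fold changes of -0.33 and -0.23 (0.41 and 0.012 corrected), and NUP35 did not pass, with 18.7, 16.9 and 20.2 CPM in the siPRMT1 libraries against 18.3, 19.7 and 18.4 CPM in the control libraries (log2 fold change -0.024, 0.10 corrected; edgeR, adjusted p = 0.721).

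NUP210, the tested membrane nucleoporin, fell in both fits. It had 18.4, 18.4 and 18.5 CPM in the siPRMT1 libraries against 36.4, 36.3 and 38.0 CPM in the control libraries. Its log2 fold change was -1.002 (SE 0.0549; edgeR, adjusted p = 1.33e-57) and -1.03 after the correction, although its transcript has 58.4% GC, and 3413 of 4262 tested genes with at least 55% GC rose. Its transcript of 7206 bases is in a length class, 5000 to 7500 bases, in which 1585 of 2226 tested genes fell. Its relative NUP210L had 0, 1 and 0 counts in the siPRMT1 libraries and 1, 0 and 2 in the control libraries and was not tested.

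On the cytoplasmic side 3 of 4 genes fell and 1 rose, where 45% and 44.3% of tested genes did. RANBP2, which forms the cytoplasmic filaments, binds Ran and attaches SUMO to other proteins, had 31.5, 34.5 and 31.1 CPM in the siPRMT1 libraries against 111, 106 and 109 CPM in the control libraries. It was 3.34-fold lower, with a log2 fold change of -1.74 (SE 0.0381), and -0.38 after the correction. RANBP2 has near-identical copies in the RGPD genes, so reads could be split between them, and the summed RGPD level was 15.4 to 18.3 CPM in the siPRMT1 libraries against 34.8 to 38.3 CPM in the control libraries. NUP42, a small repeat protein, had 12.6, 14.2 and 12.4 CPM in the siPRMT1 libraries against 21.7, 20.5 and 21.2 CPM in the control libraries (log2 fold change -0.69, -0.68 corrected). NUP88, which with NUP214 forms the docking site for XPO1, had 142, 142 and 141 CPM in the siPRMT1 libraries against 118, 117 and 115 CPM in the control libraries. Its log2 fold change of 0.28 was 0.78 after the correction but -0.039, and not past the threshold, by library size alone, and 31.7% of its annotated exon bases lie opposite RABEP1 exons, whose reads are not separable if strand was ignored. NUP214 had a log2 fold change of -0.14, and 0.33 after the correction.

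Among the 24 tested nucleoporins, including RANBP2 and TPR, 21 fell and 2 rose (NUP88 and NUP85; with scaling by library size alone NUP85 was lower and NUP88 did not pass, at -0.039). After the correction 11 were lower and 9 higher, with a median of -0.014. Over all tested genes 45% fell and 44.3% rose, and 40.5% were lower and 40% higher after the correction.

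Importin alpha proteins read the classical nuclear localisation signal on cargo and bridge it to importin beta. KPNA2, the most abundant of the family in both groups, rose while 5 others fell, where 44.3% of tested genes rose and 45% fell. KPNA2 (ENSG00000182481; hg38, chromosome 17, 68035636 to 68046854, plus strand) had 490.4, 483 and 491 CPM in the siPRMT1 libraries, against 327, 323 and 311 CPM in the control libraries. Its log2 fold change was 0.61 (SE 0.0158; edgeR, adjusted p = 2.38e-154), 0.59 after the correction and 0.29 with scaling by library size alone. KPNA7, known mainly from oocytes and embryos, had 33, 28 and 20 counts in the siPRMT1 libraries against 6, 9 and 12 in the control libraries. Its log2 fold change was 1.91 (SE 0.297; edgeR, adjusted p = 3.68e-10) and 1.42 after the correction, on very few reads.

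The other importin alpha genes were lower than in the controls without the correction. KPNA3 had 31.4, 32.0 and 31.3 CPM in the siPRMT1 libraries against 75.9, 74.2 and 77.3 CPM in the control libraries, 2.40-fold lower (log2 fold change -1.26, -0.35 corrected). KPNA5 had 3.29, 4.51 and 3.09 CPM in the siPRMT1 libraries against 7.26, 7.75 and 6.54 CPM in the control libraries (log2 fold change -0.96, 0.73 corrected). KPNA4, KPNA1 and KPNA6 had log2 fold changes of -0.67, -0.51 and -0.23, and 0.63, 0.63 and 0.49 after the correction. KPNA3 was thus the 1 importin alpha gene still lower after the correction, and 6 of 7 were then higher, where 40% of tested genes were. Per kilobase of transcript, KPNA2 made up 86.1% ± 0.305 of the family's counts in the siPRMT1 libraries and 72.9% ± 0.576 in the control libraries. KPNA3 made up 2.61% ± 0.0524 in the siPRMT1 libraries and 8.08% ± 0.286 in the control libraries. These shares keep any effect of GC content and length. After the correction KPNA2 had a log2 fold change of 0.59, KPNA1, KPNA4, KPNA5 and KPNA6 had 0.49 to 0.73, and KPNA3 had -0.35.

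**Figure D4:**
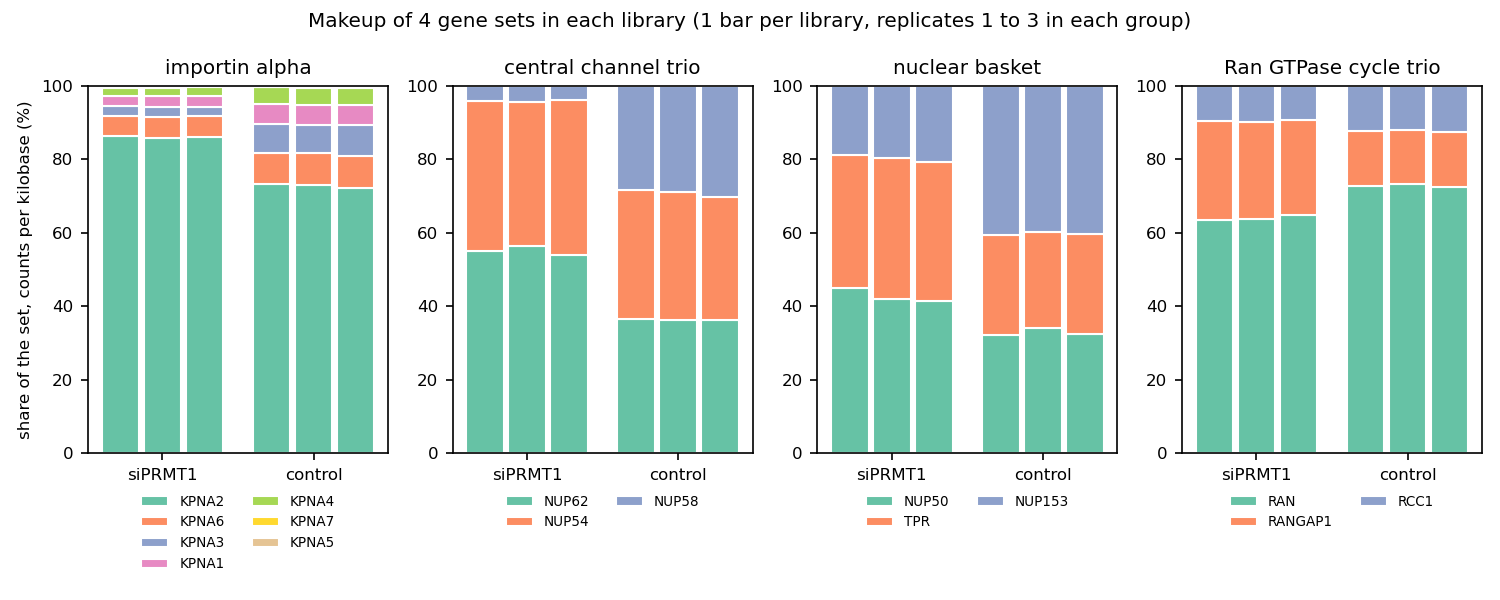
Share (%) of the counts per kilobase of transcript that each gene took within 4 sets, with 1 stacked bar per library, siPRMT1 libraries left of control libraries in each panel. KPNA2 took 86.1% against 72.9% of the importin alpha set, NUP58 4.07% against 29.1% of the central channel trio, NUP153 19.7% against 40.2% of the basket, and RANGAP1 26.4% against 15.002% of the Ran cycle trio (means, siPRMT1 against control). The shares are not corrected for GC content.

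Of the 12 import receptors of the importin beta family, 9 fell and 2 rose, at a median log2 fold change of -0.56. After the correction 7 were higher and 3 lower. Among all tested genes 45% fell and 44.3% rose, and 40% were higher and 40.5% lower after the correction. TNPO1 (transportin, which imports RNA-binding proteins such as hnRNP A proteins; ENSG00000083312; hg38, chromosome 5, 72816312 to 72908951, plus strand) had 77.2, 79.4 and 78.3 CPM in the siPRMT1 libraries, against 276, 274 and 270.1 CPM in the control libraries. It was 3.49-fold lower, with a log2 fold change of -1.80 (SE 0.0258; edgeR, adjusted p = 2.65e-268), and -0.31 after the correction. IPO7, an import receptor for ribosomal proteins among others, had 89.4, 88.6 and 85.1 CPM in the siPRMT1 libraries against 305, 301 and 302 CPM in the control libraries (log2 fold change -1.79, -0.55 corrected). Its relative IPO8 had 29.7, 26.4 and 29.4 CPM in the siPRMT1 libraries against 89.2, 87.9 and 86.9 CPM in the control libraries (log2 fold change -1.63, -0.73 corrected). These 3 receptors fell in both fits.

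The receptor that carries most classical cargo, KPNB1 (importin beta), had 413, 415 and 417 CPM in the siPRMT1 libraries against 510.4, 505 and 503 CPM in the control libraries, and its log2 fold change of -0.29 was 0.48 after the correction. RANBP6, IPO5, IPO11, IPO9 and TNPO3, the importer of SR splicing factors, had log2 fold changes from -0.80 to -0.28, and between 0.14 and 0.41 after the correction, where RANBP6 did not pass. IPO11 shares 15.8% of its annotated exon bases with LRRC70 on the same strand, so its counts are uncertain. IPO13, which works in both directions, had 57.3, 56.9 and 58.5 CPM in the siPRMT1 libraries against 41.3, 39.7 and 41.1 CPM in the control libraries (log2 fold change 0.50, 0.10 corrected). IPO4, an importer of histones, had 71.6, 69.4 and 66.9 CPM in the siPRMT1 libraries against 42.7, 46.8 and 43.1 CPM in the control libraries (log2 fold change 0.65, 0.12 corrected). IPO4 and IPO13 rose, and IPO4 shares 68.7% of its annotated exon bases with a read-through gene on the same strand, so its counts are uncertain.

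TNPO2, the close relative of TNPO1, did not pass the test. It had 87.7, 95.6 and 88.4 CPM in the siPRMT1 libraries against 87.5, 85.6 and 90.4 CPM in the control libraries, with a log2 fold change of 0.047 (edgeR, adjusted p = 0.143) that was -0.27 when scaled by library size only. Its corrected value was -0.048, which did not pass either. The coding sequences of the 2 genes are 73.2% identical over 2664 aligned bases, but TNPO1 has 41.7% GC there and TNPO2 57.7%, and at the last position of codons TNPO1 has 38.3% and TNPO2 79.0%. The stretch of 90 coding bases below is shown because it lets the genes be compared letter by letter. It aligns without gaps, and the 15 differing bases, in capitals, fall in 11 cases on the last position of a codon. The TNPO1 stretch lies in exon 13 (hg38, chr5:72888173-72888262, plus strand) and has 54.4% GC, and the TNPO2 stretch lies in exon 14 (hg38, chr19:12706611-12706700, minus strand) and has 63.3% GC.
TNPO1: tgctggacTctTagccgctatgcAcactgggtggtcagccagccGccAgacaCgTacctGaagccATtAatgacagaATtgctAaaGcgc
TNPO2: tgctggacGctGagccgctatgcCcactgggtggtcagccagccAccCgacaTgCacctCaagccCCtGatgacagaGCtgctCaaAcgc
Reads of 150 bases would cross several of these differences.

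All 8 exporters fell, and 3 of them were still lower after the correction while 4 were then higher. Of all tested genes 45% fell, and 40.5% were lower and 40% higher after the correction. XPO1, the receptor for leucine-rich export signals, had 85.9, 85.6 and 88.9 CPM in the siPRMT1 libraries, against 255, 251 and 255 CPM in the control libraries. It was 2.92-fold lower, with a log2 fold change of -1.55 (SE 0.0256; edgeR, adjusted p = 8.71e-239), and -0.60 after the correction. XPO4, which exports the translation factor eIF5A, had 11.7, 10.9 and 11.7 CPM in the siPRMT1 libraries against 38.0, 40.3 and 36.5 CPM in the control libraries (log2 fold change -1.75, -0.32 corrected). CSE1L, which returns importin alpha to the cytoplasm, had 331, 329.7 and 323 CPM in the siPRMT1 libraries against 424, 415 and 413 CPM in the control libraries, and its log2 fold change of -0.35 was 0.41 after the correction.

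The other exporters moved within a narrower range of log2 fold changes. XPOT, the tRNA exporter, had -0.84, and 0.21 after the correction. XPO5, which carries microRNA precursors, had -0.16, and 0.30 after the correction. XPO6, the exporter of actin, had -0.13 (-0.20 corrected). XPO7 and its relative RANBP17 had -0.50 and -0.42, and -0.025 and 0.32 after the correction. Per kilobase of transcript, XPO1 made up 10.05% ± 0.188 of the exporters' counts in the siPRMT1 libraries and 19.9% ± 0.193 in the control libraries, and CSE1L 53.4% ± 0.934 in the siPRMT1 libraries and 46.1% ± 0.228 in the control libraries.

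The Ran cycle and Ran-binding genes leaned the other way. Of the 7 tested 6 rose and 1 fell, at a median log2 fold change of 0.28, where 44.3% of tested genes rose and 45% fell. The 7 include RANBP9, which fell, and RANBP10, which rose, and these are not known mainly for the Ran cycle. RAN, RCC1 and RANBP3 had the opposite sign with scaling by library size alone. After the correction 4 of the 7 were higher and 3 lower. RANGAP1 (ENSG00000100401; hg38, chromosome 22, 41244779 to 41286187, minus strand), which makes Ran hydrolyse its GTP and sits on RANBP2 when modified by SUMO, had 344, 345 and 338 CPM in the siPRMT1 libraries, against 141, 140.0 and 143 CPM in the control libraries. It was 2.43-fold higher, with a log2 fold change of 1.28 (SE 0.0213; edgeR, adjusted p = 5.09e-237), 0.83 after the correction and 0.96 with scaling by library size alone. RANBP1, which assists RANGAP1, had 144, 141 and 138 CPM in the siPRMT1 libraries against 92.6, 90.9 and 92.7 CPM in the control libraries (log2 fold change 0.61, 0.077 corrected).

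RAN itself, one of the most abundant members per kilobase, had 528, 538 and 541 CPM in the siPRMT1 libraries against 442, 446 and 439.9 CPM in the control libraries. Its log2 fold change was 0.28, 0.72 after the correction and -0.042 with scaling by library size alone. RAN has 9 pseudogenes by name in the annotation used, so its reads may be split. TNPO1, KPNA2 and NUP210 have 3 each, IPO7 and NUP35 have 2 each, and NUP58 and several other members have 1 each. RCC1, the exchange factor on chromatin, had 82.2, 84.4 and 79.1 CPM in the siPRMT1 libraries against 76.0, 74.9 and 77.7 CPM in the control libraries, and its log2 fold change of 0.11 was -0.21 when scaled by library size alone and -0.19 once corrected. Within the trio of RAN, RANGAP1 and RCC1, RANGAP1 made up 26.4% ± 0.349 of the counts per kilobase in the siPRMT1 libraries and 15.002% ± 0.160 in the control libraries. This share keeps any effect of GC content and length, and the corrected log2 fold changes were 0.83 for RANGAP1, 0.72 for RAN and -0.19 for RCC1.

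The remaining Ran-binding genes were mixed. RANBP3, a helper of XPO1, had a log2 fold change of 0.28 that was -0.034 and did not pass when scaled by library size alone, and was -0.29 once corrected. RANBP9 and RANBP10 carry the Ran-binding name but are known mainly as parts of a ubiquitin ligase complex. RANBP9 had 53.4, 54.3 and 55.2 CPM in the siPRMT1 libraries against 109.6, 101 and 99.4 CPM in the control libraries (log2 fold change -0.93, -0.84 corrected). RANBP10 had 20.8, 21.9 and 21.2 CPM in the siPRMT1 libraries against 15.1, 15.4 and 16.5 CPM in the control libraries (log2 fold change 0.44, 0.53 corrected). RANBP9 fell and RANBP10 rose in both fits, although 15.5% of the annotated exon bases of RANBP9 lie opposite NOL7 exons. With scaling by library size alone RANBP10 had a log2 fold change of 0.13 and did not pass. RANBP3L had 0, 1 and 1 counts in the siPRMT1 libraries and 2, 2 and 5 in the control libraries and was not tested.

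Both subunits of the mRNA export receptor rose without the correction, as did 44.3% of tested genes. NXF1 had 58.8, 63.9 and 58.7 CPM in the siPRMT1 libraries against 44.4, 43.98 and 47.3 CPM in the control libraries (log2 fold change 0.42, 0.13 corrected). NXT1, its small partner, had 38.5, 38.7 and 38.6 CPM in the siPRMT1 libraries against 23.0, 22.0 and 20.6 CPM in the control libraries, and its log2 fold change of 0.82 was -0.17 after the correction.

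A pair of companion lists gave the same pathway beyond the members. Of 23 genes of the TREX complex and mRNA export, which bring NXF1 to the transcript, 13 rose and 9 fell, where 44.3% and 45% of tested genes did. Their median log2 fold change was 0.20. With scaling by library size alone 8 were higher and 12 lower, where 33.5% and 55.4% of tested genes were. After the correction 11 were higher and 11 lower, where 40% and 40.5% of tested genes were. THOC2, the largest TREX subunit, had 16.4, 20.3 and 17.6 CPM in the siPRMT1 libraries against 69.0, 67.8 and 67.6 CPM in the control libraries (log2 fold change -1.90, -0.78 corrected). FYTTD1, an export adaptor, had 19.7, 20.01 and 20.8 CPM in the siPRMT1 libraries against 67.5, 67.8 and 67.3 CPM in the control libraries (log2 fold change -1.75, -0.57 corrected). DDX39A, an export helicase, had 208, 204 and 203 CPM in the siPRMT1 libraries against 87.8, 90.1 and 86.1 CPM in the control libraries (log2 fold change 1.22, 0.23 corrected). These 3 kept their sign, while THOC6, with 46.5, 41.7 and 46.0 CPM in the siPRMT1 libraries against 21.5, 19.8 and 21.3 CPM in the control libraries, had a log2 fold change of 1.09 that was -0.12 after the correction.

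In a last list, of 21 pore and transport genes whose symbols the rule does not take, 11 rose and 10 fell, where 44.3% and 45% of tested genes did. The median of this list was 0.098, and it was -0.22 when scaled by library size alone and -0.041 once corrected. AHCTF1, which starts pore assembly on chromatin, had 26.5, 27.0 and 28.1 CPM in the siPRMT1 libraries against 90.4, 90.2 and 87.9 CPM in the control libraries (log2 fold change -1.72, -0.50 corrected). NXT2, a relative of NXT1, had 6.82, 6.53 and 6.83 CPM in the siPRMT1 libraries against 20.2, 20.9 and 21.7 CPM in the control libraries (log2 fold change -1.64, -0.81 corrected). AAAS, a nucleoporin of the cytoplasmic side, had 58.6, 57.7 and 55.2 CPM in the siPRMT1 libraries against 27.0, 26.8 and 27.5 CPM in the control libraries (log2 fold change 1.08, 0.17 corrected). AHCTF1 and NXT2 fell and AAAS rose in both fits. RANGRF had 34.6, 29.1 and 32.2 CPM in the siPRMT1 libraries against 15.6, 14.5 and 17.1 CPM in the control libraries, a log2 fold change of 1.01 that was -0.056 after the correction.

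Related genes were also compared by the ratio of their counts within a library, which no scaling between libraries can move. Over 9 pairs, the exact two-sided permutation test with 3 against 3 libraries cannot go below p = 0.1, and after Benjamini-Hochberg adjustment over the pairs the lowest value was 0.1125, so that no pair could pass 0.05. TNPO1 had 0.865 counts for each TNPO2 count in the siPRMT1 libraries and 3.11 in the control libraries, a difference of -1.85 on the log2 scale (exact p = 0.1). RANBP9 had 2.55 counts for each RANBP10 count in the siPRMT1 libraries and 6.59 in the control libraries, a difference of -1.37 (exact p = 0.1). In both pairs the groups lay far apart relative to their spread, with SDs of 0.034 to 0.14 on the log2 scale. Of single tested genes, 89.1% had groups that did not overlap, and how often the ratios of other gene pairs do so was not tested.

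The other pairs differed less. KPNA3 against KPNA4 differed by -0.59, KPNA1 against KPNA6 by -0.28, IPO7 against IPO8 by -0.16, IPO5 against RANBP6 by 0.18 and KPNA1 against KPNA5 by 0.48. In these pairs the groups did not overlap, as in 89.1% of single tested genes. KPNA2 against KPNA7 differed by -1.297, on the few reads of KPNA7. XPO7 against RANBP17 overlapped between the groups (-0.092, exact p = 0.3). The ratio keeps any effect of a difference in GC content or length within a pair. At the last position of codons RANBP9 had 46.0% GC and RANBP10 71.0%, a gap in the same direction as in TNPO1 and TNPO2, while KPNA3 and KPNA4 had 35.4% and 32.2%. After the correction RANBP9 and RANBP10 still had log2 fold changes of -0.84 and 0.53, while TNPO1 and TNPO2 had -0.31 and -0.048. KPNA3 and KPNA4 had -0.35 and 0.63. The part of GC content in these ratios was not tested.

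**Figure D5:**
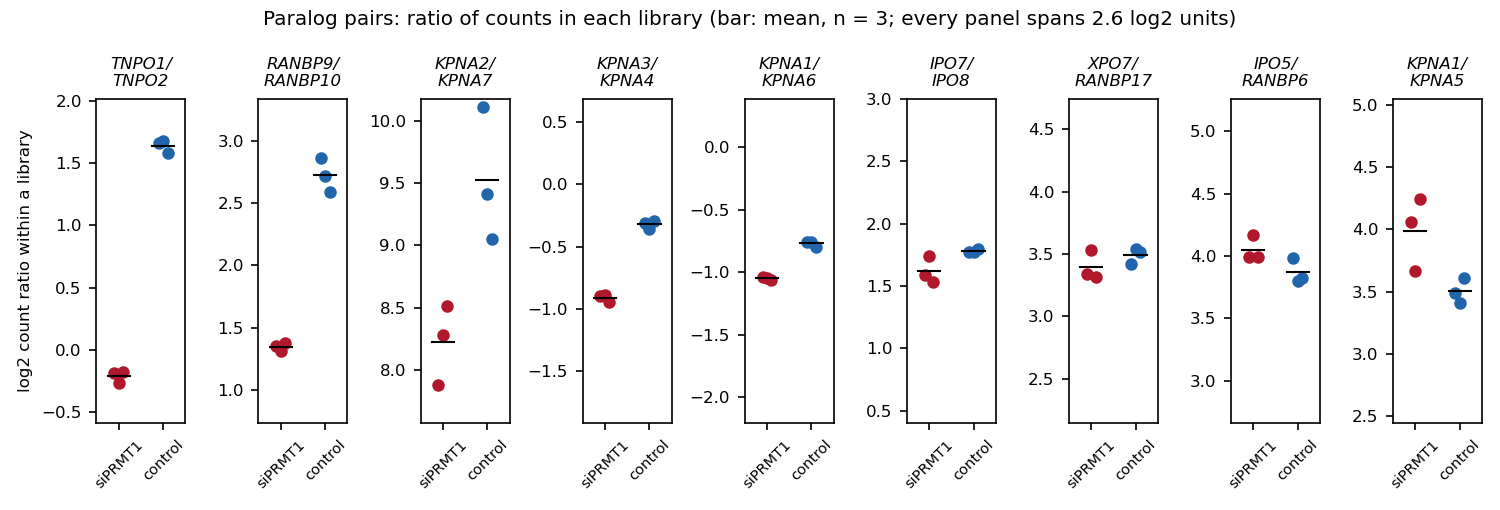
Log2 ratio of the counts of 2 related genes in each library (points; the bar is the mean, n = 3), siPRMT1 libraries left of control libraries, with panels that span the same 2.6 log2 units. The TNPO1 to TNPO2 and RANBP9 to RANBP10 ratios are 1.85 and 1.37 lower in the siPRMT1 libraries, while the XPO7 to RANBP17 points of the groups overlap.

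The promoters of the members were read from RefSeq (GRCh38.p14), as 250 bases before to 50 after the start, for the 53 tested members that matched by symbol, and searched on both strands for 8 short motifs. CCAAT was found in 47.2% of the member promoters and in 36.6% of those of 10778 tested genes, and the ETS motif CCGGAAG in 28.3% and 19.0%. The YY1 motif AAGATGGC was found in 15.1% and 5.21%, and the NRF1 motif GCATGCGC in 11.3% and 5.41%. The last letters of the ETS motif are the first of the YY1 motif, so a match of each can share bases. The SP1 motif GGGCGG was found in 60.4% and 69.4%, TATAAA in 5.66% and 5.88%, TGACGTCA in 5.66% and 3.21%, and the E2F motif TTTCCCGC in 1.89% and 2.61%. The promoter of NUP58, the member that fell most, is shown with its ETS match, on the minus strand, in capitals (GRCh38.p14, chr13:25301375-25301674, plus strand). A match is a description of the letters and not of binding.
NUP58: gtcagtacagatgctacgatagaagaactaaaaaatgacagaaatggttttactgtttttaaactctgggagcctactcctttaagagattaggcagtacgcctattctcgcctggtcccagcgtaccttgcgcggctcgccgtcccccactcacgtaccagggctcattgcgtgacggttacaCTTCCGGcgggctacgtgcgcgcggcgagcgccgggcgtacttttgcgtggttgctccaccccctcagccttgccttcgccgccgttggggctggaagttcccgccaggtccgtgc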

How the data were processed

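The deposited counts are whole-number reads for each gene in 6 libraries, in a single table whose other columns describe the genes. The submitters' processing notes name hg38 as the build, and as tools edgeR 3.40.2, Subread 1.5.1 and featureCounts, STAR 2.7.6a and fastp 0.23.2. The sources used here do not give the annotation release, the strand setting or what was done with duplicate reads. The comparison used edgeR 4.0.16 (R 4.3.3) with filterByExpr, TMM scaling, glmQLFit and glmQLFTest, and Benjamini-Hochberg adjusted p-values over 13710 tested genes, at 0.05. Standard errors were derived from fold change and F. The common dispersion sat at the lowest value that edgeR searches (9.77e-05), so very small p-values reflect close replicates. The fits were tested on simulated data in which few genes changed, equally up and down, at a dispersion above that found here. That test does not cover a table in which most genes pass. The correction used splines with 5 degrees of freedom on GC content and log length of GENCODE release 44 canonical transcripts, for 13694 tested genes. Before averaging, replicates were compared by a chi-square test over genes, and no pair agreed within sampling noise. Count ratios of related genes had 0.5 added to each count. Named genes were, per role, up to 2 highest and 2 lowest log2 fold changes past the threshold, both genes of the pairs shown, and the 2 highest and 2 lowest of each companion list. KPNB1, CSE1L, TPR, NUP54 and others are named for their role. The members and lists were chosen with earlier results of these data known. Alternatives were RLE, upper-quartile and library-size scaling, DESeq2 1.42.0, limma-voom (limma 3.58.1), no filter, at least 1 CPM in 3 samples, the replicate block, and leaving out each library. Intervals and errors cover counting and replicate spread only.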

Additional observations from a re-analysis of the deposited data

How the results depend on the processing

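Counts of members, medians and named genes kept their direction and their side of the threshold under RLE scaling, limma-voom and the stricter filter, and the count of members higher stayed at 14 and of members lower at 44 without any 1 library. The member median lay between -0.497 and -0.416 with 1 library left out, and was -0.487 with upper-quartile scaling, -0.493 without the filter on low counts and -0.757 with library size alone. With library size alone 8 members were higher, as were 8 genes of the TREX list. RCC1, RANBP3, NUP85, RAN, NUP88 and TNPO2 then had -0.21, -0.034, -0.14, -0.042, -0.039 and -0.27, since that scaling moves all genes down. RCC1 did not pass with upper-quartile scaling, nor NUP62 in DESeq2, nor RANBP10, RANBP3 and NUP88 with library size alone, nor XPO7 and NUP205 after the correction below, while NUP35 and TNPO2 passed with library size alone.

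The correction for GC content and length left 31 members higher and 22 lower, with a median of 0.11. NUP35 (0.10) and TNPO2 (-0.048), which passed in neither fit, also turned. Among genes past the threshold without the correction, values of the opposite sign in that fit were CSE1L 0.41, IPO11 0.26, IPO5 0.38, IPO9 0.41, KPNA1 0.63, KPNA4 0.63, KPNA5 0.73, KPNA6 0.49, KPNB1 0.48, NUP107 0.45, NUP133 0.35, NUP155 0.19, NUP188 0.012, NUP214 0.33, NUP37 0.12, NUP43 0.26, NUP54 0.013, NUP93 0.41, RANBP17 0.32, RANBP6 0.14, TNPO3 0.14, TPR 0.28, XPO5 0.30 and XPOT 0.21, all lower without it, and NUP85 -0.21, NXT1 -0.17, RANBP3 -0.29, RCC1 -0.19, THOC6 -0.12 and RANGRF -0.056, all higher without it. What in the cells or the libraries the correction removes was not tested.

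No pairing by replicate number was visible: deviations from the group means correlated between same-numbered libraries at -0.017, -0.027 and -0.017 over 10052 genes. Replicates differed little beyond sampling noise, with chi-square over its degrees of freedom of 1.05 to 1.38, so these correlations cannot exclude pairing. With the replicate number as a block, 12219 genes passed, against 12243 without it, and 14 members were higher and 44 lower. With the block and the correction together 31 members were higher and 22 lower, with a median of 0.11, and the same genes past the threshold without the correction had the opposite sign: CSE1L 0.41, IPO11 0.26, IPO5 0.38, IPO9 0.41, KPNA1 0.63, KPNA4 0.63, KPNA5 0.71, KPNA6 0.49, KPNB1 0.48, NUP107 0.45, NUP133 0.35, NUP155 0.19, NUP188 0.012, NUP214 0.33, NUP37 0.12, NUP43 0.26, NUP54 0.015, NUP93 0.42, NUP85 -0.20, NXT1 -0.17, RANBP17 0.32, RANBP3 -0.29, RANBP6 0.14, RANGRF -0.046, RCC1 -0.19, THOC6 -0.11, TNPO3 0.13, TPR 0.28, XPO5 0.30 and XPOT 0.21.

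Depth limits the members with few reads: NUP210L and RANBP3L could not be tested, and the values of KPNA7 and NUP62CL rest on 6 to 33 and 5 to 76 counts per library.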
